A study of Rattus norvegicus with 2 samples.

Results

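The genes described here encode the clotting, fibrinolysis and complement proteins of blood plasma: 43 genes of 14217 named genes on the arrays, chosen by name. In partial hepatectomy (PH) a portion of the liver is cut away, and here the remaining tissue was sampled 24 h later. The 2/3PH and 1/3PH rats differed in how much was removed, and each group was 1 array hybridised with pooled liver RNA of 3 rats, so 6 rats gave 2 measurements. Both groups had surgery, and livers without resection were not analysed here. The study set these groups against each other because, per its design text, DNA replication is strong after 2/3PH and slight after 1/3PH. The labels state no strain, sex or age. With 1 array a group there is no replicate error and no test was made: every difference below compares these 2 pools, and "higher" and "lower" describe the 2/3PH pool with 1/3PH as its base.

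Hepatocytes make most plasma proteins. In clotting, a cascade of protease precursors activates thrombin, which cuts fibrinogen into fibrin, and inhibitors such as antithrombin and protein C hold the cascade in check. In fibrinolysis, plasmin made from plasminogen dissolves the fibrin. Complement is a second plasma cascade, started by the C1 complex, by mannose-binding lectins or by the alternative pathway; its convertases cleave C3 and C5, and the terminal proteins build a pore in the target membrane. Partial hepatectomy leaves a smaller liver to supply these proteins while it grows back.

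Of the 43 genes, 38 had a probe set named for that gene alone. F7, F11 and F13b were not named in the platform annotation, and C2 and Cfb were listed only together, on 4 probe sets annotated to both, so these 5 genes are not reported. Kng1 (kininogen) was matched through a synonym to probe sets named Kng2l1, a kininogen relative, and is called Kng2l1 here; without it, 36 genes had a median log2 ratio of -0.51. Where a gene had several probe sets, the brightest on average over both arrays stood for it. A floor was set at the median over all probe sets other than controls, a signal of 89.2 array units, and 37 of the 38 genes reached it, as did 9514 of all named genes. Those 37 also reached a floor at the 75th percentile, a signal of 448.3, so their inclusion did not turn on where the floor lay. F13a1 (factor XIII A chain, made in platelets and macrophages) was the gene under the floor, with signals of 41.0 after 2/3PH and 41.3 after 1/3PH.

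Promoter sequences are shown for 6 genes picked after their values were seen. They are the 3 fibrinogen chain genes, with small differences, and Klkb1, C8b and Plg, among the genes with the largest. F5 and Tfpi had smaller differences than the fibrinogen chains, and Mbl1 had a larger one than Plg. The windows run from 250 bases before to 50 bases after the gene's start, 5′ to 3′ on the gene's strand, from RefSeq in build GRCr8. Capitals mark exact matches, on either strand, to the HNF1 half-site GTTAAT, the C/EBP site TTGCNNAA or the IL-6 response element CTGGGAA, which belong to regulators well known in liver. No matches overlapped in these windows. The table holds 2 windows for Fga, and the first is shown.
Fga, chr2:170671919-170672218, plus strand: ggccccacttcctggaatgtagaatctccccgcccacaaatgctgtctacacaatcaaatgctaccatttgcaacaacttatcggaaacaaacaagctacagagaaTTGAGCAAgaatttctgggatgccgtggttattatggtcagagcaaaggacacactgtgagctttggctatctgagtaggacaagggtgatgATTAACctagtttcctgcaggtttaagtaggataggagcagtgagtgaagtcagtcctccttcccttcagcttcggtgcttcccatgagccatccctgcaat
Fgb, chr2:170700826-170701125, minus strand: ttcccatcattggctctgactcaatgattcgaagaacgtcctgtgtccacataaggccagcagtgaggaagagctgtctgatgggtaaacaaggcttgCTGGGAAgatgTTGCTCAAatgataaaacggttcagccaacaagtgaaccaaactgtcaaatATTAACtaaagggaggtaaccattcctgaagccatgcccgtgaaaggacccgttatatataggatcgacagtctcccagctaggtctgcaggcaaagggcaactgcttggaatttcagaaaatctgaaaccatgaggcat
Fgg, chr2:170652833-170653132, plus strand: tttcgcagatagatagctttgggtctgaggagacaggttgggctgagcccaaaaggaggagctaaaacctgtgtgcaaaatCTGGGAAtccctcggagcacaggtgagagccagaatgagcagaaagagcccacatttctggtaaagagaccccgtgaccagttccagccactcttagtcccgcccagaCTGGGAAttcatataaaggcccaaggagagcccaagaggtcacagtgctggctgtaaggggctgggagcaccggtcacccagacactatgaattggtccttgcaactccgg
Klkb1, chr16:53690976-53691275, plus strand: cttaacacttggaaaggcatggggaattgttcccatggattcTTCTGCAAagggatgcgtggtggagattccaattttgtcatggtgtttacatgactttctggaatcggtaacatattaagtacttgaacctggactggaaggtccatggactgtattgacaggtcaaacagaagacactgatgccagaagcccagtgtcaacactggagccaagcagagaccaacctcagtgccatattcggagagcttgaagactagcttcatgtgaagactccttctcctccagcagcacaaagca
C8b, chr5:124763864-124764163, plus strand: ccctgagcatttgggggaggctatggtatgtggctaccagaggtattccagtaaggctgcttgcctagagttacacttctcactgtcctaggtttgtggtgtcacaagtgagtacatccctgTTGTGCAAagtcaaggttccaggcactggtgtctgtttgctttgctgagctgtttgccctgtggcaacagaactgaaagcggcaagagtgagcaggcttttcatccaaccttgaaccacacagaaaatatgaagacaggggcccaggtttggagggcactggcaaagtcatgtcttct
Plg, chr1:50915357-50915656, minus strand: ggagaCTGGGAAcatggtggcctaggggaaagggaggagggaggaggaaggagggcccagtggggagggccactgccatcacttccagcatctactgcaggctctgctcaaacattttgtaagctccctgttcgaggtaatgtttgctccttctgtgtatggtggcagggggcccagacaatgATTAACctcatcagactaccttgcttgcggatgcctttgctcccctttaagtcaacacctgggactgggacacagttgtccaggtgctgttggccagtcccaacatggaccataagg

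On the deposited scale all 37 measured genes had a lower signal after 2/3PH than after 1/3PH, with 6 of the 37 above 0 when the arrays were scaled to hybridisation controls, 16 when scaled to poly-A controls and 2 after quantile normalization or removal of a loess trend. Of all 9514 named genes at or above the floor, 47.1% had a deposited ratio below 0. That share was 29.1% under hybridisation control scaling and 17.8% under poly-A control scaling. It was 50.1% after quantile normalization and 48.8% after removal of a loess trend. The median log2 ratio (2/3PH minus 1/3PH) was -0.54, a 1.46-fold lower signal, against 0.03 over all named genes. The differences were modest: 16 of the 37 (43.2%) were at least 1.5-fold lower and none was 1.5-fold higher, where 12% of all named genes were 1.5-fold lower and 15.8% were 1.5-fold higher. That count depended on the scaling: 10 genes were 1.5-fold lower after quantile normalization, 6 under hybridisation control scaling, against 6.16% of all named genes, and 1 under poly-A control scaling, against 3.40% lower and 41.5% higher among all named genes. At 2-fold on the deposited scale, 1 gene was lower and none was higher, against 3.68% and 6.12% of all named genes. Ratios ran between -1.13 for Klkb1 (plasma prekallikrein) and -0.13 for F5 (factor V), with an SD of 0.27 among the 37 genes. The SD was 0.66 over all named genes, many of them dimmer. Over 499 other genes within the interquartile range of the set's signal it was 0.49. Ratios below are on the deposited scale. In the plot of signals by gene, the 2/3PH point lies left of the 1/3PH point in each of the 37 rows.

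**Figure D1:**
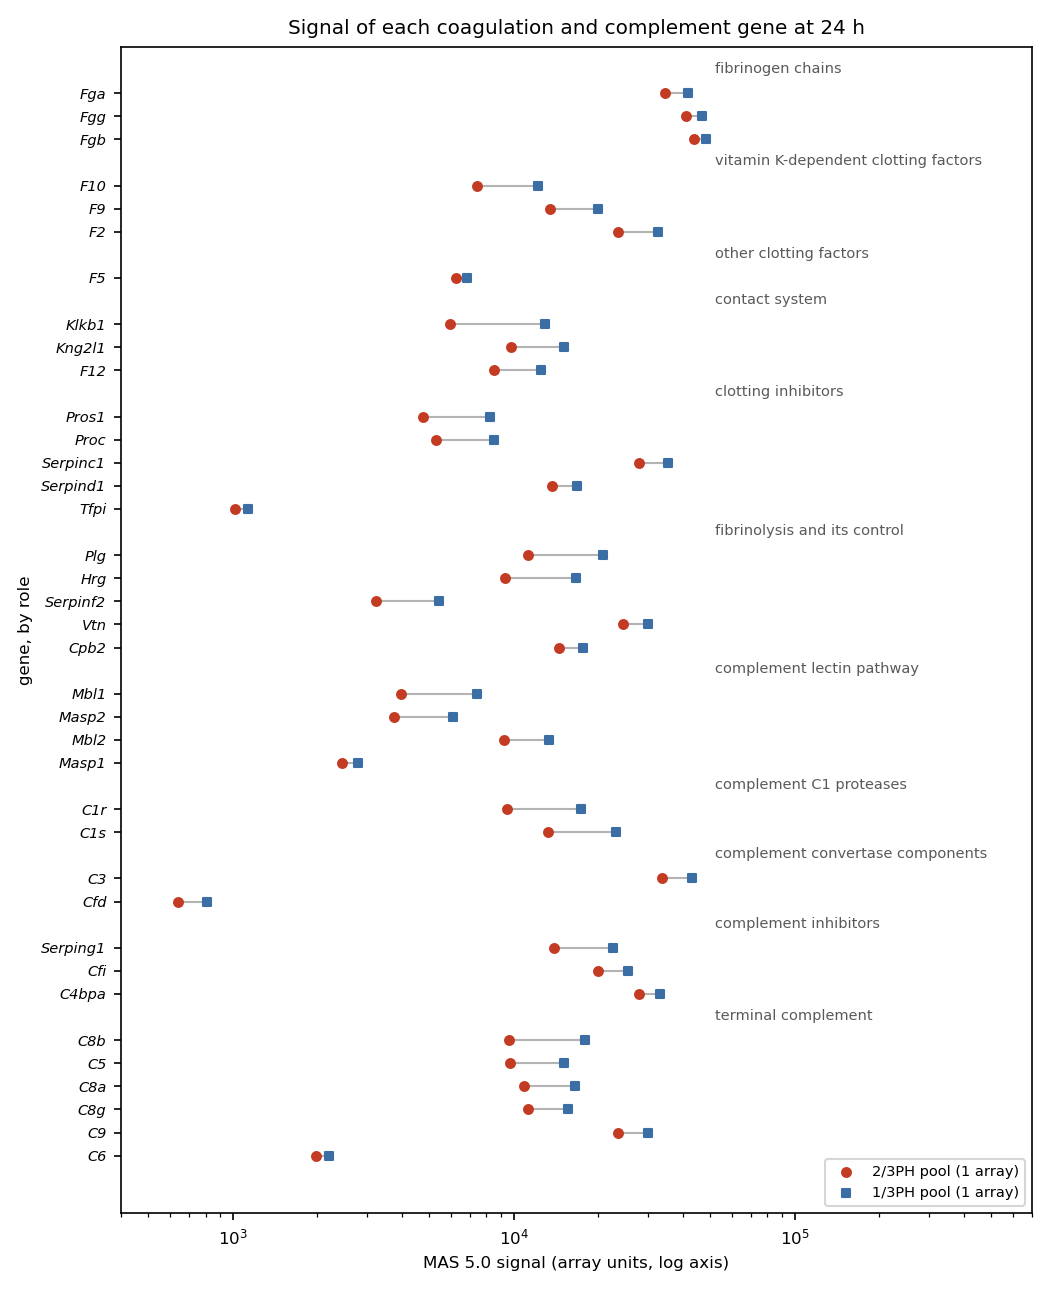
MAS 5.0 signal (x axis, array units, log scale) of 37 genes, grouped by role down the y axis, with 1 point for the 2/3PH pool (circles) and 1 for the 1/3PH pool (squares); there are no error bars because each group is 1 array. The widest gap is that of Klkb1 (5923 after 2/3PH, 12933 after 1/3PH), and the fibrinogen chains at the right edge show small gaps.

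Part of the error within the arrays can be taken from genes measured by several probe sets. Over 708 genes with several probe sets at or above the 75th percentile floor, the pooled SD of the log2 ratio between probe sets of a gene was 0.24, and the spread of a difference between 2 such ratios is 0.34. Both values leave out all variation between rats and any error shared by a whole array, such as that of scaling. The 0.34 is 1 SD of a difference, so passing it is a description and not a test. The pairs of genes set against it below were not fixed in advance. Some hold the extremes of a group, such as F5, the highest gene of the set, or C8b and C8g among the C8 chains. Such pairs pass it more readily. Fgb, Fgg, F5, Tfpi, Masp1 and C6 had ratios closer to 0 than the SD of 0.24, and the other 31 genes lay farther below 0. The trimmed mean signal of the arrays was 500.2 after 2/3PH and 500.3 after 1/3PH, and the ratio of 3′ to 5′ signal was 1.28 and 1.58 for Gapdh and 7.53 and 6.68 for beta-actin, in the same order. Hepatocyte markers were abundant on both arrays, with albumin (Alb) at 29468 after 2/3PH and 34570 after 1/3PH. In these bulk samples, fewer cells of a type and less RNA per cell cannot be told apart.

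The coagulation arm had 15 measured genes, a median log2 ratio of -0.48 and 5 genes (33.3%) at least 1.5-fold lower, against 12% of all named genes. The fibrinogen chains and factor V stood close to 0, and Klkb1, Pros1 and F10 stood farthest below it. Fibrinogen, the substrate of thrombin, is built from 3 chains encoded side by side on chromosome 2. Fgb (beta chain) had signals of 43674 after 2/3PH and 48502 after 1/3PH, 1.11-fold lower. Fgg (gamma chain) had 41192 after 2/3PH and 46738 after 1/3PH, 1.13-fold lower. Fga (alpha chain) had 34657 after 2/3PH and 41795 after 1/3PH, 1.21-fold lower. The chains thus lay within 0.12 of each other in log2 ratio, less than the spread between probe sets. Another probe set of Fga gave 30821 after 2/3PH and 29764 after 1/3PH, giving a log2 ratio of 0.05, so the sign of Fga depends on the probe set. Fibrinogen signals were near the top of both arrays, where the highest signal was 45512 after 2/3PH and 51254 after 1/3PH.

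Vitamin K-dependent proteins carry carboxylated glutamate residues that bind calcium, and the 5 measured in the set (F2, F9, F10, Proc and Pros1, grouped after their values were seen) were lower. F2 (prothrombin, the thrombin precursor) had signals of 23441 after 2/3PH and 32711 after 1/3PH, 1.40-fold lower. F9 (factor IX) had 13488 after 2/3PH and 19896 after 1/3PH, 1.48-fold lower. F10 (factor X, which activates prothrombin) had 7391 after 2/3PH and 12168 after 1/3PH, 1.65-fold lower. The inhibitors among them were lower by similar amounts. Proc (protein C, which inactivates factors V and VIII) had 5285 after 2/3PH and 8481 after 1/3PH, 1.60-fold lower, and Pros1 (protein S, its cofactor) had 4749 after 2/3PH and 8241 after 1/3PH, 1.74-fold lower. The median log2 ratio of these 5 genes was -0.68. Factor V is the cofactor of factor X and needs no vitamin K. F5 had 6216 after 2/3PH and 6799 after 1/3PH, 1.09-fold lower, and its log2 ratio lay 0.59 above that of F10, more than the spread between probe sets.

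The contact system gene Klkb1 had the largest difference of the 37 genes. The 3 genes listed for the contact system had a median log2 ratio of -0.63, which is the value of Kng2l1, matched through a synonym. Klkb1 encodes plasma prekallikrein, which activates factor XII and releases bradykinin from kininogen, and its signal was 5923 after 2/3PH and 12933 after 1/3PH, 2.18-fold lower. Of all named genes at or above the floor, 2.77% had a lower ratio. F12 (factor XII, which starts the contact pathway) had 8505 after 2/3PH and 12532 after 1/3PH, 1.47-fold lower. The Klkb1 ratio lay 0.57 below that of F12. Kng2l1 had 9779 after 2/3PH and 15093 after 1/3PH, 1.54-fold lower by its brightest probe set. The 3 Kng2l1 probe sets ranged from -0.92 to -0.21 in log2 ratio, so its place among the genes at least 1.5-fold lower depends on the probe set. F11, the factor XI gene next to Klkb1 in the annotation, was not named on the array.

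Clotting inhibitors outside the vitamin K group were lower by less than 1.5-fold. Serpinc1 (antithrombin, the main inhibitor of thrombin and factor Xa) had signals of 27841 after 2/3PH and 35469 after 1/3PH, 1.27-fold lower. Serpind1 (heparin cofactor II, another thrombin inhibitor) had 13741 after 2/3PH and 16776 after 1/3PH, 1.22-fold lower. Tfpi, the tissue factor pathway inhibitor, is made largely by endothelium, and had 1021 after 2/3PH and 1130 after 1/3PH, 1.11-fold lower. Its second probe set gave a log2 ratio of -0.02.

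The fibrinolysis arm, with 5 genes, had the lowest median of the 3 arms at -0.75. At least 1.5-fold lower were 3 of its genes, against 12% of all named genes. Its genes stood apart in size: 3 were between 1.68- and 1.84-fold lower, and the other 2 were 1.21- and 1.23-fold lower. Plg (plasminogen) had signals of 11288 after 2/3PH and 20789 after 1/3PH, 1.84-fold lower. Hrg (histidine-rich glycoprotein, which binds plasminogen and heparin) had 9295 after 2/3PH and 16633 after 1/3PH, 1.79-fold lower. Serpinf2 (alpha-2-antiplasmin, the inhibitor of plasmin) had 3238 after 2/3PH and 5433 after 1/3PH, 1.68-fold lower. Both the plasmin precursor and its inhibitor were thus among the lower genes. Cpb2 (a carboxypeptidase that slows clot lysis) had 14553 after 2/3PH and 17606 after 1/3PH, 1.21-fold lower. Vtn (vitronectin, which stabilises the plasminogen activator inhibitor PAI-1 and also restrains the complement pore) had 24477 after 2/3PH and 30063 after 1/3PH, 1.23-fold lower. The ratio of Plg lay 0.61 below that of Cpb2. The median rests on few genes. Without probe sets whose names end in _s_at, _x_at or _a_at it was -0.52, against -0.52 for coagulation and -0.54 for complement. That choice removes Hrg here and Serpind1 from the coagulation arm, and it moves Fga to its other probe set, at 0.05.

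The complement arm had 17 measured genes, a median log2 ratio of -0.54 and 8 genes (47.1%) at least 1.5-fold lower, against 12% of all named genes. Its lowest genes were C8b of the pore complex, the lectin Mbl1 and the starting proteases C1r and C1s, and C6, Masp1 and C4bpa were nearest to 0. C1r and C1s are the proteases of the C1 complex, which start the classical pathway, and their genes are neighbours on chromosome 4. C1r had signals of 9476 after 2/3PH and 17363 after 1/3PH, 1.83-fold lower. C1s had 13282 after 2/3PH and 23041 after 1/3PH, 1.73-fold lower, a log2 ratio within 0.08 of that of C1r. Serping1, the C1 inhibitor, which blocks both proteases and also kallikrein, had 13879 after 2/3PH and 22596 after 1/3PH, 1.63-fold lower.

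Lectin pathway genes differed among themselves. Mbl1 and Mbl2 encode the 2 mannose-binding lectins of rodents, which recognise microbial sugars. Mbl1 had signals of 3982 after 2/3PH and 7373 after 1/3PH, 1.85-fold lower, and Mbl2 had 9212 after 2/3PH and 13409 after 1/3PH, 1.46-fold lower. The second Mbl2 probe set gave a log2 ratio of -0.76, closer to the -0.89 of Mbl1. Masp2 (the lectin-associated protease that cleaves C4 and C2) had 3748 after 2/3PH and 6073 after 1/3PH, 1.62-fold lower, and Masp1 (its activator) had 2442 after 2/3PH and 2784 after 1/3PH, 1.14-fold lower. The difference between both Masp genes, 0.51, passed the spread between probe sets, but each gene has several transcripts and its probe sets did not give 1 value. Masp2 probe sets ranged from -0.70 to -0.14, and a second Masp1 probe set above the floor gave 0.03.

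Convertase components and the inhibitors other than Serping1 were lower by less than 1.5-fold. C3, the central complement protein, had signals of 33611 after 2/3PH and 43091 after 1/3PH, 1.28-fold lower. Cfd (factor D, the protease of the alternative pathway that cleaves factor B, best known from adipose tissue) had 638 after 2/3PH and 808 after 1/3PH, 1.27-fold lower. The adipocyte markers Adipoq, Plin1 and Lep were under the floor on both arrays. C4bpa, the alpha chain of the C4b-binding protein, had 27896 after 2/3PH and 33253 after 1/3PH, 1.19-fold lower. Cfi (factor I, which cleaves C3b and C4b) had 19890 after 2/3PH and 25627 after 1/3PH, 1.29-fold lower. C4b-binding protein circulates bound to protein S, and Pros1 lay 0.54 below C4bpa in log2 ratio.

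The 6 terminal genes, whose products build the membrane attack complex, had a median of -0.54. At least 1.5-fold lower were 3 of 6, against 12% of all named genes. C8b had signals of 9630 after 2/3PH and 17909 after 1/3PH, 1.86-fold lower. C8a had 10877 after 2/3PH and 16547 after 1/3PH, 1.52-fold lower, and C8g had 11246 after 2/3PH and 15607 after 1/3PH, 1.39-fold lower. These are the 3 chains of 1 protein, C8, and the ratios of C8b and C8g differed by 0.42, more than the spread between probe sets, whereas C8b and C8a, neighbours on chromosome 5, differed by 0.29, less than it. C5, the first terminal protein, had 9703 after 2/3PH and 15059 after 1/3PH, 1.55-fold lower. C6, which binds C5b, had 1973 after 2/3PH and 2193 after 1/3PH, 1.11-fold lower. C9, which polymerises into the pore, had 23512 after 2/3PH and 30184 after 1/3PH, 1.28-fold lower.

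On the deposited scale the complement median lay 0.06 below the coagulation median, an order that turned when all probe sets of a gene were averaged (-0.47 for complement and -0.56 for coagulation). The fibrinolysis median, over 5 genes, lay 0.27 below the coagulation median. With 1 array a group these differences were not tested. By kind of protein, 14 protease precursors had a median of -0.62 and 4 serpins, their inhibitors, one of -0.53. These kinds were grouped after the values were seen.

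Ratios differed between ranges of signal, without one trend over all of them. The 21 genes with a mean log2 signal of 12 up to 14 had a median of -0.68, with 14 at least 1.5-fold lower. The 12 genes at 14 or more had a median of -0.35 with 2 at least 1.5-fold lower, and the 4 genes under 12 (Cfd, Tfpi, C6 and Masp1) had a median of -0.17 with none. Among other named genes, 11.2% at 9.49 up to 12 were at least 1.5-fold lower. The share was 15.6% at 12 up to 13, 17.6% at 13 up to 14 and 10.4% at 14 up to 15.49. In that brightest range 154 other genes had a median of -0.18, with 71.4% below 0. Over all 37 genes, Pearson's r between mean log2 signal and ratio was 0.05 and Spearman's rho 0.22, and over the 34 genes without the fibrinogen chains they were -0.12 and 0.07. Over the 33 genes at 12 or more, a limit chosen after the values were seen, they were 0.61 and 0.60. These are descriptions, since all points share both arrays and the ratio is made from the same signals. Other named genes of like signal also lay below 0: within the interquartile range of the set's signal (12.7 to 14.5 in log2), 499 other genes had a median of -0.09, with 59.1% below 0 and 16.8% at least 1.5-fold lower. The set's median was 0.45 below that of those genes and 0.58 below that of all named genes. The plot of ratio against signal shows the coloured points under the middle of the grey cloud at the bright end.

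**Figure D2:**
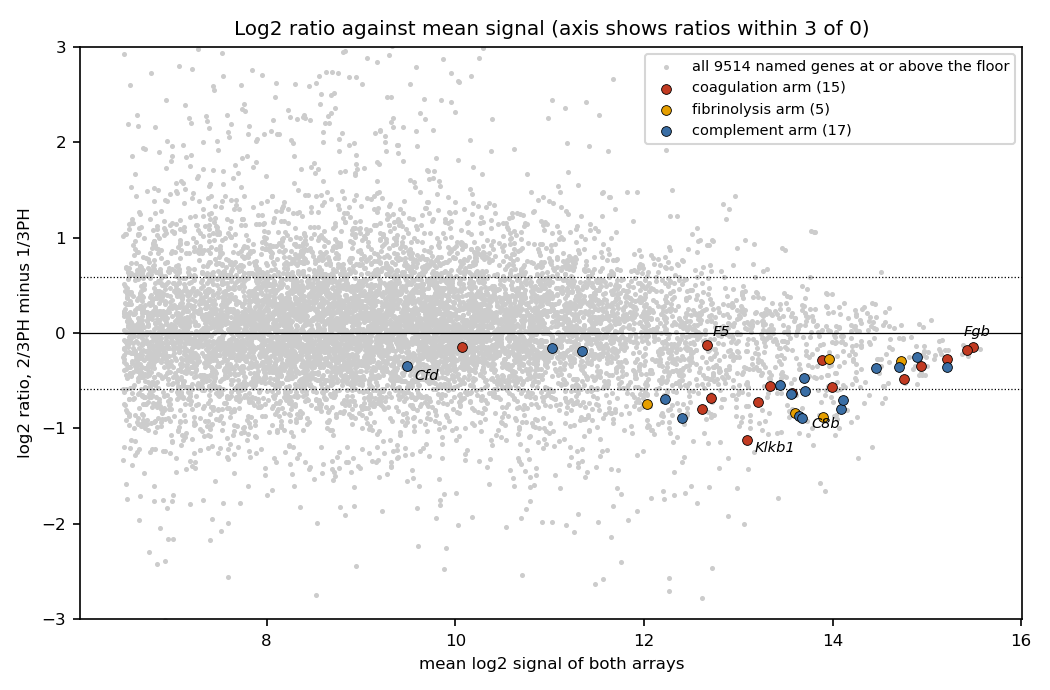
Log2 ratio, 2/3PH minus 1/3PH (y axis), against mean log2 signal of both arrays (x axis) for 9514 named genes (grey) and the 37 genes of the 3 arms (coloured); dotted lines mark 1.5-fold. On the deposited scale every coloured point lies below 0, with Klkb1 the lowest at -1.13 and Fgb, the brightest, at -0.15. Under poly-A scaling 16 of the 37 genes lie above 0, where 17.8% of all named genes lie below it.

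Other genes of the same pathways did not all share this pattern. Of 14 other clotting genes at or above the floor, 11 were below 0 and 3 above, with a median of -0.20. At 1.5-fold, 2 were lower and 2 higher, against 12% and 15.8% of all named genes. Genes of these lists other than those at least 2-fold different, or highest or lowest in a list, were named after their values were seen. Gas6, a vitamin K-dependent relative of protein S, had signals of 1572 after 2/3PH and 4473 after 1/3PH, 2.85-fold lower. Serpina10, the inhibitor of activated factor X that works with protein Z, had 14174 after 2/3PH and 21239 after 1/3PH, giving a log2 ratio of -0.58. Ggcx, the carboxylase of the vitamin K group, was 1.42-fold lower and Vkorc1, which recycles vitamin K, 1.10-fold lower. Vwf (von Willebrand factor) and F8 (factor VIII) were 1.61- and 1.37-fold lower. In the opposite direction stood the endothelial anticoagulant receptors Thbd and Procr. Thbd (thrombomodulin) had 520.7 after 2/3PH and 252.6 after 1/3PH, 2.06-fold higher, and Procr (the endothelial protein C receptor) had 917.8 after 2/3PH and 479.0 after 1/3PH, 1.92-fold higher. Both act on protein C, whose own gene was 1.60-fold lower.

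The 7 other fibrinolysis genes had a median of 0.21, with 4 above 0 and 3 below. Anxa2, a cell surface receptor for plasminogen and its activator, had signals of 1123 after 2/3PH and 682.7 after 1/3PH, 1.65-fold higher, and its partner S100a10 was 1.32-fold higher. The activators differed in sign, with Plau (urokinase) 1.25-fold higher and Plat (tissue plasminogen activator) 1.14-fold lower, and the inhibitor Serpine2 was 1.37-fold lower. A2m, a plasma protease inhibitor that also binds plasmin, was 1.12-fold lower.

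Of 12 other complement genes, 11 were below 0 and 1 above, with a median of -0.47. At least 1.5-fold lower were 5 (41.7%), against 12% of all named genes. Colec11, a collectin of the lectin pathway, had signals of 1422 after 2/3PH and 2931 after 1/3PH, 2.06-fold lower. Cr1l, a membrane regulator that protects cells from C3 convertases, was the gene above 0, at 0.09. C4bpb, the beta chain of the C4b-binding protein, was 1.08-fold lower, near C4bpa. C1qa, C1qb and C1qc, the chains of C1q, are made by macrophages, unlike C1r and C1s, and had log2 ratios of -0.72, -0.16 and -0.50. Macrophage and Kupffer cell markers stood at a median of -0.64 over 6 genes, all below 0 and ranging from Csf1r at -0.83 to Cd163 at -0.15, with a summed signal of 6652 after 2/3PH and 8961 after 1/3PH.

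Markers of other cells also differed between the arrays. The 6 endothelial markers had a median of -0.55 ranging from -1.08 for Kdr to 0.00 for Pecam1, and a summed signal of 7408 after 2/3PH and 11609 after 1/3PH. The 7 stellate cell markers had a median of -0.80, with 5 below 0 and 2 above, Lum at -1.81, Lrat at -1.30 and Col1a1 at -1.04 the lowest, and a summed signal of 6047 after 2/3PH and 11074 after 1/3PH. Of the platelet and megakaryocyte markers, Pf4, Itga2b and Itgb3 reached the floor, with log2 ratios of -0.74, -0.02 and -0.17, and Ppbp, Gp9 and Gp5 were under it. Hepatocyte markers had a median of -0.22 over 6 genes, all below 0 and ranging from Tat at -0.74 to Cps1 at -0.14, and a summed signal of 131714 after 2/3PH and 152211 after 1/3PH. The part of these cells in the differences of the clotting and complement genes was not tested.

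Against other plasma proteins of the liver, the clotting and complement genes had a lower median. Plasma carrier proteins had a median of -0.23 (13 of 13 below 0, 2 at least 1.5-fold lower, Igfals at -1.43 and Serpina6 at -1.22), apolipoproteins one of -0.27 (11 of 12 below 0, 2 at least 1.5-fold lower, ranging from Apom at -0.77 to Apoa5 at 0.09) and acute phase proteins one of -0.30 (13 of 15 below 0, 2 at least 1.5-fold lower and 1 at least 1.5-fold higher, ranging from Lbp at -1.02 to Hamp at 0.64). Of all named genes at or above the floor, 12% were at least 1.5-fold lower and 15.8% at least 1.5-fold higher. Most genes of the 3 lists are brighter than the clotting and complement genes. At a mean log2 signal of 14 or more, the 12 clotting and complement genes had a median of -0.35 and the 27 genes of the 3 lists together one of -0.23. From 12 up to 14, the medians were -0.68 over 21 genes and -0.46 over 7 genes. With 1 array a group these differences were not tested. The plot of gene lists sets the arms beside these lists.

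**Figure D3:**
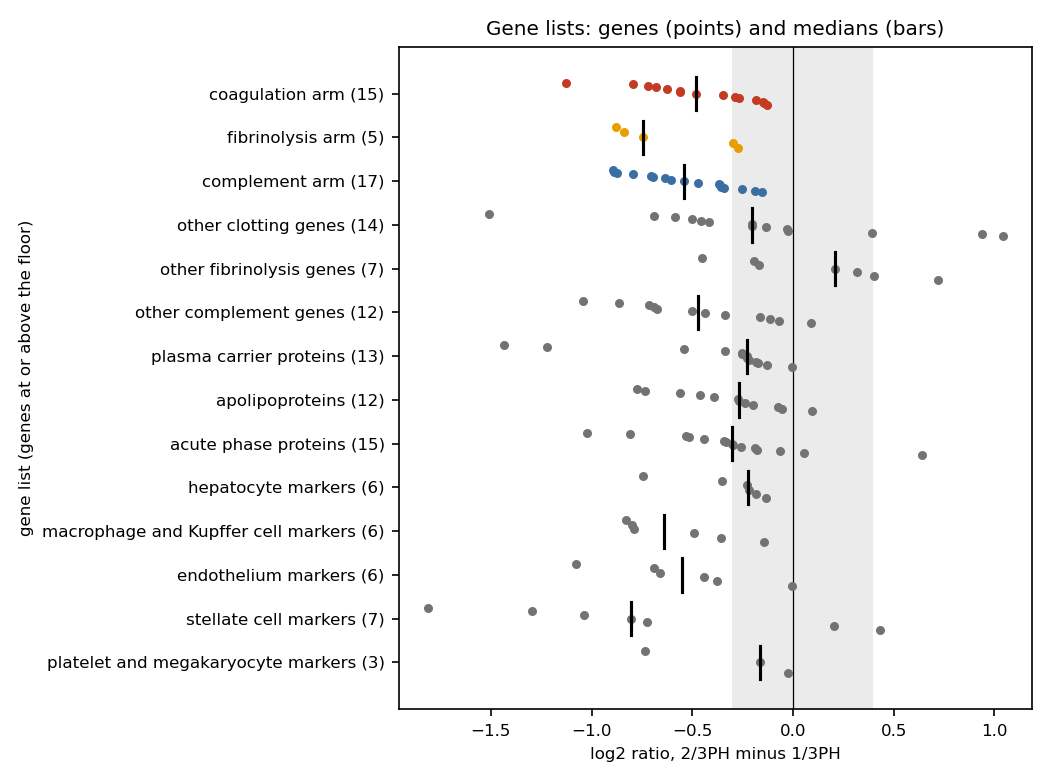
Log2 ratio, 2/3PH minus 1/3PH (x axis), of each gene (points) with the list's median (black bars) for the 3 arms (coloured) and for other lists (grey), with the number of genes at or above the floor in brackets; the grey band is the middle 50% of all named genes. On the deposited scale the arms lie wholly below 0, with medians between -0.75 and -0.48. Other fibrinolysis genes lie on both sides, with a median of 0.21. Under hybridisation control scaling 6 of the 37 genes lie above 0, and under poly-A scaling 16 do. Of all named genes, 29.1% and 17.8% lie below 0 under these scalings, in that order.

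Promoters were searched for the 3 motifs shown in capitals above. Windows were in the table for 29 of the 37 genes. The C/EBP site was in 12 of the 29 (41.4%) against 11.4% of 27457 genes with a window, the HNF1 half-site in 9 (31.0%) against 8.12%, and the IL-6 response element in 10 (34.5%) against 11.9%. The 10 genes with the IL-6 element had a median log2 ratio of -0.35 and the 19 without it -0.56. At a mean log2 signal of 14 or more stood C3, Fgb, Fgg, Serpinc1 and Vtn with this element. C4bpa, Cfi, F2 and Fga were as bright without it. Whether signal or the motif goes with the gap was not tested. For the C/EBP site the medians were -0.46 with it and -0.54 without, and for the HNF1 half-site -0.48 and -0.55. Fgb held 1 match to each motif, Fgg held 2 IL-6 elements, Fga a C/EBP site and an HNF1 half-site, and Klkb1 and C8b a C/EBP site each. Plg held an IL-6 element and an HNF1 half-site, so large and small differences both occurred with each kind of match. A match is a run of letters, not a bound site.

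The distance of these genes from 0 depended on the scaling, and loess or quantile normalization also moved their place relative to other genes. MAS 5.0 sets both arrays to the same mean, and scaling to spiked controls moved the median of all named genes by 0.24 (hybridisation controls) and 0.44 (poly-A controls). Under these scalings 31 and 21 of the 37 genes stayed below 0, against 29.1% and 17.8% of all named genes. The set's median was -0.31 and -0.10. Relative to the median of all named genes the set lay 0.58 lower under both, as on the deposited scale, since each shifts all genes alike. Removing a loess trend on signal or quantile normalization shifts genes by amounts that vary with signal. These left the set 0.42 and 0.39 below the median of all named genes, with its own medians at -0.40 and -0.39. Klkb1 was the lowest gene under each of 10 alternatives that change values or filters, between -1.18 and -0.68. Median centring and both control scalings shift all genes alike, so they could not change that order. Nor could the higher floor, which kept the same 37 genes, and leaving out the floor added F13a1 alone, at -0.008. Klkb1 has 1 probe set, so its own value could not vary by choice of probe set. The plot of medians by setting shows the arms left of the median of all genes in each row.

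**Figure D4:**
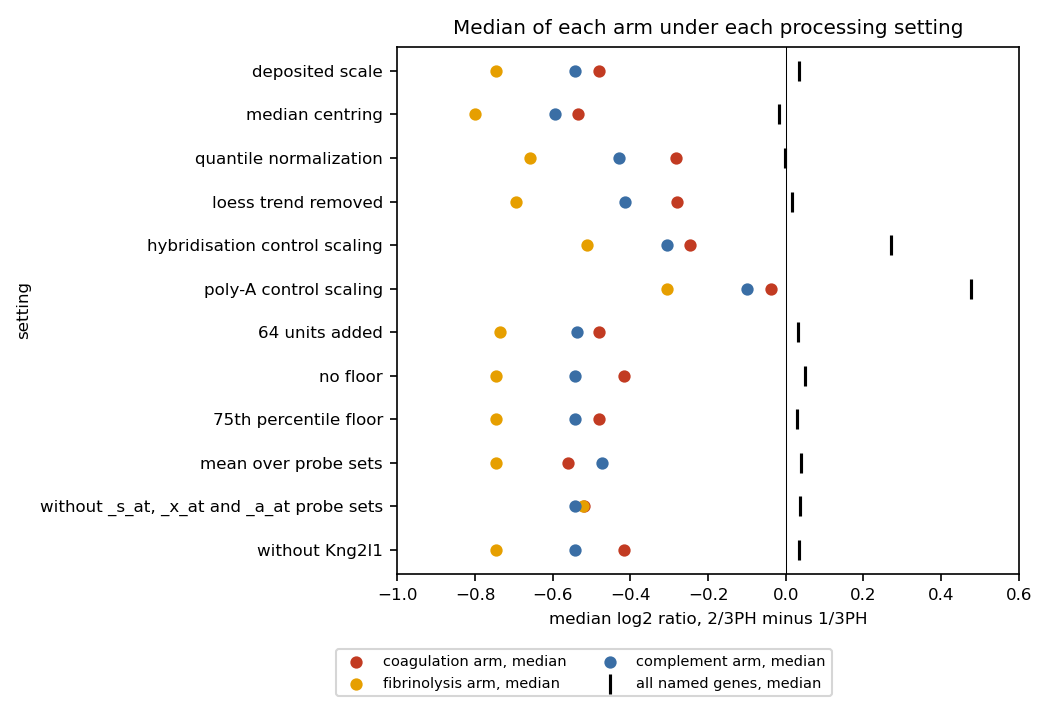
Median log2 ratio, 2/3PH minus 1/3PH (x axis), of each arm (points) and of all named genes (vertical ticks) under the deposited scale and each processing alternative (rows). The fibrinolysis arm is lowest in each row except the one without _s_at, _x_at and _a_at probe sets, and poly-A scaling brings the arms nearest to 0, at -0.31, -0.10 and -0.039.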

How the data were processed

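Pooled RNA of 3 rats a group was hybridised to 1 Affymetrix rat array a group, 2 arrays in all. Per the labels' protocols, the authors used GeneSpring 11.0 to compute MAS 5.0 signals, and the deposited values are log2 of those signals; the log base follows from the values, since as powers of 2 both arrays have one trimmed mean (2% cut at each end). The labels name neither a scaling target nor detection calls. MAS 5.0 scaling makes all differences relative to the array's mean.

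Of 31099 probe sets, 57 controls were set aside and 20826 of the other 31042 had 1 gene symbol, 436 had several and 9780 were not listed. Names came from the platform annotation, updated through Entrez IDs to RefSeq GRCr8. A gene's brightest probe set by mean log2 signal stood for it. Genes under the median mean log2 signal of 6.48 were left out. The log2 ratio is 2/3PH minus 1/3PH, and limits of 1.5-fold and 2-fold were counted. With 1 array a group there were no tests, p-values or intervals; the number of arrays limits the precision, and no replicate check exists. Values on both arrays are printed for every gene of the set at or above the floor; of other lists, genes at least 2-fold different or else the highest and lowest were named by rule. The genes, lists and rules were chosen with earlier results of these data known; the motifs, the groups of proteases, serpins and vitamin K-dependent genes, and the ranges of signal were chosen after the values were seen. Of 136 entries in 12 other lists, 20 were not named on the array. Alternatives were other scalings (median centring, quantile, loess with span 0.3, 18 hybridisation or 24 poly-A control probe sets), floors, 64 units added, other choices of probe set and, chosen after seeing the data, leaving out Kng2l1. The calculation was tested on simulated data. Python 3.11.15 with numpy 2.4.6, pandas 2.3.3, scipy 1.17.1, statsmodels 0.14.6 and matplotlib 3.10.9 was used.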

Additional observations from a re-analysis of the deposited data

How the results depend on the processing

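No paired analysis was possible because each group is 1 array with no replicate number. The medians of the 37 genes and of the 3 arms stayed below 0 under every alternative run, and no gene was at least 1.5-fold higher under any. The median over the genes moved most under the control scalings, to -0.31 for hybridisation controls and -0.10 for poly-A controls. Poly-A control scaling put the coagulation arm at -0.039, the fibrinolysis arm at -0.31 and the complement arm at -0.10. The count of genes at least 1.5-fold lower, 16 on the deposited scale, was 10 after quantile normalization, 6 under hybridisation control scaling and 1 under poly-A control scaling, and 1 gene passed a 2-fold limit. These scalings also moved the genes the counts are read against: 13.4%, 6.16% and 3.40% of all named genes were 1.5-fold lower under quantile, hybridisation and poly-A scaling, in that order. Which scaling is nearer to RNA per cell was not tested. Averaging all probe sets put the coagulation median at -0.56 and the complement median at -0.47, which turns their order. It also put Fgb at -0.83, since 2 of its 3 probe sets are under the floor. Fga was at 0.05 without its _a_at probe set and Fgb at 0.09 after loess. Leaving out Kng2l1 gave 15 genes and a coagulation median of -0.42. All 37 genes had signals above the 75th percentile floor, and neither group has a replicate array.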
